A study of Rattus norvegicus with 9 samples.

Results

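Expression of 10 genes of the vascular and mesenchymal growth factor systems was followed in RNA sequencing libraries of rat knee tissue. The genes were chosen by symbol from the 17602 genes of the deposited table. They were the VEGF family ligands Vegfa, Vegfb, Vegfc and Pgf, the PDGF ligands Pdgfa, Pdgfb, Pdgfc and Pdgfd, the ligand Hgf, and the PDGF receptor gene Pdgfra. All 10 were in the table and all 10 passed the filter on low values. Samples came from wild-type male Lewis rats aged 10 to 12 weeks, with 3 libraries in each of 3 groups, labelled as biological replicates. The Intact group was synovium, the lining tissue of the joint, taken around the medial meniscus of knees without surgery. For the Sham group, synovium of that site was collected 1 week after an operation that only opened and closed the joint capsule. The pMx group had undergone partial medial meniscectomy (pMx) of both knees, an operation that cut the meniscotibial ligament and took out the front part of the medial meniscus, and its regenerating tissue was collected 1 week later. Surrounding synovium was removed from the pMx tissue before RNA extraction, so pMx and Sham libraries differed in both the operation and the tissue, and these cannot be told apart. RNA integrity, as the study lists it, was also highest in the pMx, intermediate in the Sham and lowest in the Intact group without overlap, and it cannot be told apart from the groups either. Which libraries came from the same animal is not given in the sources used here, so p-values measure only the spread between these libraries.

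VEGF family ligands act mainly on endothelial cells. VEGF-A signals through the receptors VEGFR1 (Flt1) and VEGFR2 (Kdr), PlGF (Pgf) and VEGF-B bind VEGFR1, and VEGF-C drives lymphatic growth through VEGFR3 (Flt4). PDGF ligands are dimers that stimulate fibroblasts, pericytes and smooth muscle cells through PDGFR-alpha (Pdgfra) and PDGFR-beta (Pdgfrb), and PDGF-C and PDGF-D must be cleaved before they bind. HGF is made by mesenchymal cells as an inactive precursor, is cleaved by serine proteases and acts on the receptor MET. The inner part of the meniscus has no vessels, whereas synovium is rich in them.

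The 250 bases before the annotated start of transcription are shown for Pgf and Vegfa, which rose in the pMx group, and for Vegfc and Hgf, which fell, as 2 examples of each direction. Sequences are RefSeq's for the assembly GRCr8, written 5′ to 3′ on the strand of the gene, and all 10 genes had an entry. Capitals mark the core of the hypoxia response element (ACGTG or GCGTG) and the GC box (GGGCGG), on either strand. For Vegfa the first of its 2 annotated starts is shown.
Pgf promoter, chr6:110557748-110557997, minus strand: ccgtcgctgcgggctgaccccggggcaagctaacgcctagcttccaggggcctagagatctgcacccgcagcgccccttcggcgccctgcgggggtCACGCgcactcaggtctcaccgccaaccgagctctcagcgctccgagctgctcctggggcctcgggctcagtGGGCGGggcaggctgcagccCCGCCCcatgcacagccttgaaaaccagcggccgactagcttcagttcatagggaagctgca
Vegfa promoter, chr9:22452604-22452853, plus strand: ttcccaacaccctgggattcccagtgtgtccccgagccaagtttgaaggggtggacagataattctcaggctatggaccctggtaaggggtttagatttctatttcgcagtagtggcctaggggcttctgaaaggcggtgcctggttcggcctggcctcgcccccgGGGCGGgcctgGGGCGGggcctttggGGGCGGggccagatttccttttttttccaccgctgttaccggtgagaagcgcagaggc
Vegfc promoter, chr16:44560888-44561137, minus strand: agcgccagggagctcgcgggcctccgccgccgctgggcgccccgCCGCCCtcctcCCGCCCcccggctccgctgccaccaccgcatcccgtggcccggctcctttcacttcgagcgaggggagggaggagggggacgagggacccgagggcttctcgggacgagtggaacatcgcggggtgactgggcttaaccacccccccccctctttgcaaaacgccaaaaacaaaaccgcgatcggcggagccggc
Hgf promoter, chr4:19700468-19700717, minus strand: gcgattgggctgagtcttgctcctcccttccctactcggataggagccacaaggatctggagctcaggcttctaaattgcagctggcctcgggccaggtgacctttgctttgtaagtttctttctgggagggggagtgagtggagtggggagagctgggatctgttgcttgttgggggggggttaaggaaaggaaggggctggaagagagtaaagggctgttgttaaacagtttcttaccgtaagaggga
The Pgf window held 1 hypoxia response element core, at position 97 counted from its 5′ end, and 2 GC boxes, and the Vegfa window held 3 GC boxes. The Vegfc window held 2 GC boxes and the Hgf window neither motif. Over the 11 windows of the 10 genes, 4 held a hypoxia response element core and 7 a GC box, against 36.7% and 30.5% of all 33469 windows of this length. The AP-1 site (TGAGTCA or TGACTCA) and the TATA box (TATAAA) were in 0 of the 11 windows, against 4.05% and 12.9% of all windows. These matches describe letters only.

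Values are TPM, a length-scaled measure of transcript abundance that totals 1000000 in each library. TPM keep no read numbers, so the depth of the libraries is unknown. Genes above 0 TPM numbered 15914 to 15965 in Intact, 16074 to 16125 in Sham and 15644 to 15794 in pMx libraries. Fold changes are differences of mean log2(TPM + 1), with standard errors (SE) and adjusted p-values from limma fitted to 16512 genes over all 9 libraries. The pseudocount of 1 makes the fold changes of low genes smaller than those of the TPM themselves. A gene is said to have risen or fallen at an adjusted p below 0.05, and a differentially expressed gene (DEG) also had an absolute log2 fold change above 1. The 3 comparisons share libraries with each other. Intact replicate 3 stood apart, with skeletal muscle markers summing to 49250 TPM against 75.4 to 3441 TPM in the other 8 libraries.

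Among the 10 genes, Pdgfra had the highest mean TPM and Hgf the lowest in each group. In Intact libraries the mean was 70.2 TPM for Pdgfra and 6.42 TPM for Hgf, and in Sham libraries 84.6 and 5.01 TPM. In pMx libraries these means were 79.8 and 2.22 TPM. In the Sham group the order after Pdgfra was Pdgfb, Vegfb, Pdgfa, Vegfa, Pdgfc, Vegfc, Pdgfd, Pgf and Hgf. Neighbours with overlapping libraries there were Pdgfb with Vegfb and Pdgfc with Vegfc. In the pMx group Vegfa stood above Vegfb, and Pgf above Vegfc. The libraries of Vegfa and Vegfb overlapped there, whereas those of Pgf and Vegfc did not. In the Intact group all neighbours overlapped except Pdgfb with Pdgfa and Pgf with Hgf.

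**Figure D1:**
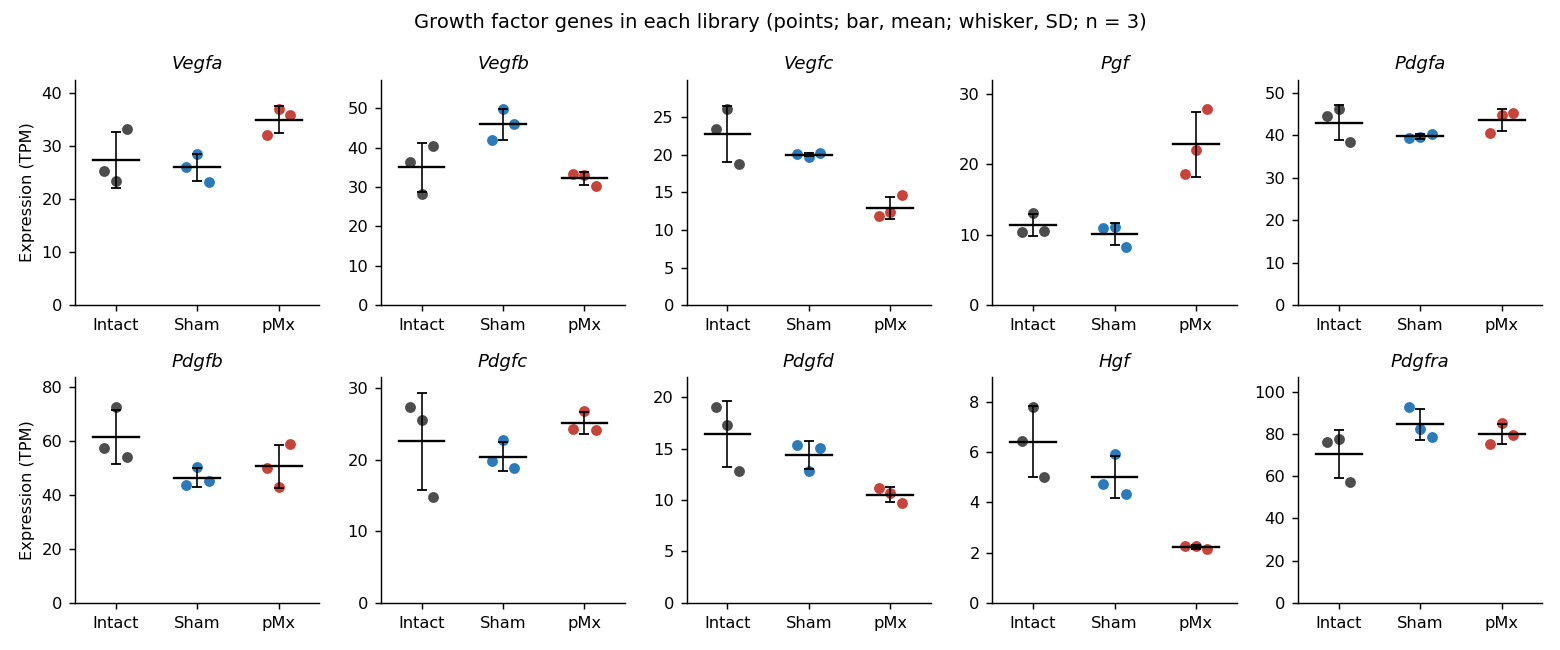
Expression of the 10 growth factor genes in TPM (vertical axes, each from 0) in the 3 libraries of each group (horizontal axis), with the mean as a bar and the SD as a whisker. Pgf, Vegfa, Pdgfa and Pdgfc of the pMx libraries lie above every Sham library, and Vegfb, Vegfc, Pdgfd and Hgf lie below. Of these, Pdgfa and Pdgfc did not pass the test. The share of all genes without overlap between pMx and Sham libraries was not computed. At an unadjusted p below 0.05 in limma, 45.6% of all genes passed in this comparison.

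The question of the pMx and Sham comparison is which genes differ in regenerating tissue from operated synovium. Of the 10 genes, 2 rose (Pgf and Vegfa) and 4 fell (Vegfb, Vegfc, Pdgfd and Hgf), and 4 did not pass the test. Over all genes tested, 17.7% rose and 18.9% fell in this comparison. Pgf was the one DEG among the 10, and 8.21% of all genes were DEGs. The median log2 fold change was 0.02 over the 10 genes and -0.01 over all genes. Without pMx replicate 3, 3 of the 10 passed (Pgf, Vegfc and Hgf).

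Pgf (gene identifier 94203), which encodes placental growth factor, had the largest increase. Its expression was 10.9, 11.1 and 8.27 TPM in Sham libraries, and 18.7, 22.0 and 27.8 TPM in pMx libraries. Intact libraries were at 10.4, 13.1 and 10.5 TPM, in the range of the Sham libraries apart from replicate 2. Every pMx library was above every other library. The mean TPM was 10.1 ± 1.58 in Sham and 22.8 ± 4.63 in pMx (SD, n = 3 each), a ratio of means of 2.26. The log2 fold change was 1.09 (SE 0.17, adjusted p = 0.00124 from limma), and 0.94 against Intact (adjusted p = 0.00171 from limma). Pgf remained past the adjusted p threshold in all 9 fits that each left out a library. The fold change fell below the DEG threshold without Sham replicate 3 (0.97) and without pMx replicate 3 (0.95). The study matched its DEGs to a senescence-associated gene set and reports a minority of the matches as upregulated in the pMx group of these same libraries. Its text names none of the 10 genes, and the direction of Pgf here is not independent evidence for that report.

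Vegfa (gene identifier 83785), the main angiogenic ligand, was higher in pMx by a smaller amount. Sham libraries were at 26.1, 28.5 and 23.3 TPM and pMx libraries at 32.1, 37.0 and 35.8 TPM, without overlap. Mean TPM was 26.0 ± 2.61 in Sham and 34.9 ± 2.56 in pMx (SD, n = 3 each), with a log2 fold change of 0.42 (SE 0.13, adjusted p = 0.0381 from limma). Intact libraries were at 25.3, 23.4 and 33.3 TPM, and the muscle-rich replicate 3 was the only one of them inside the pMx range. The difference from Intact was 0.36 on the log2 scale (adjusted p = 0.0511 from limma) and 0.50 without Intact replicate 3 (adjusted p = 0.00301 from limma). It was also called with quantile normalization (adjusted p = 0.0422), pseudocounts of 0.1 (0.048) and 0.01 (0.0483) and a filter at a mean of 1 TPM (0.0426). The call against Sham was lost in 5 of the 9 fits that left out a library. Those were the fits without Sham replicate 1 (adjusted p = 0.0855), Sham replicate 3 (0.129), pMx replicate 1 (0.0527), pMx replicate 2 (0.114) and pMx replicate 3 (0.0986), with log2 fold changes of 0.34 to 0.48 over all 9 fits. It was also lost with median-of-ratios scaling (adjusted p = 0.0627) and quantile normalization (0.0515).

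Vegfb (gene identifier 89811), a VEGFR1 ligand, went the other way. Sham libraries were at 41.9, 49.7 and 46.1 TPM and pMx libraries at 33.3, 33.1 and 30.4 TPM. The groups did not overlap, and mean TPM was 45.9 ± 3.93 in Sham and 32.2 ± 1.65 in pMx (SD, n = 3 each). The log2 fold change was -0.49 (SE 0.12, adjusted p = 0.0146 from limma). Intact libraries, at 36.3, 28.2 and 40.3 TPM, spanned the pMx range. The differences from Intact were 0.39 in Sham (adjusted p = 0.0736 from limma) and -0.10 in pMx (adjusted p = 0.545). The call of pMx against Sham was lost without Sham replicate 2 (log2 fold change -0.44, adjusted p = 0.0512) and without pMx replicate 3 (-0.45, adjusted p = 0.0512).

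Vegfc (gene identifier 114111), the lymphangiogenic ligand, fell in pMx against both other groups. Its expression was 20.1, 19.8 and 20.2 TPM in Sham libraries, a spread of 0.232 TPM (SD, n = 3), and 11.8, 12.4 and 14.6 TPM in pMx libraries. Intact libraries were at 23.5, 26.1 and 18.8 TPM. All 6 libraries of the Intact and Sham groups were above all pMx libraries. On the log2 scale Vegfc changed by -0.60 against Sham (SE 0.12, adjusted p = 0.00549 from limma) and -0.76 against Intact (adjusted p = 0.000923 from limma). Both calls held in all 9 fits that left out a library.

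The summed TPM of these VEGF family ligands was close between groups, while the shares of the ligands differed. The sum was 102 ± 6.20 TPM in Sham and 103 ± 6.45 TPM in pMx (SD, n = 3 each), with 96.4 ± 6.07 TPM in Intact. It leaves out Vegfd, a VEGF family gene outside the 10 chosen, with means of 12.5 TPM in Sham and 3.68 TPM in pMx. The share of Pgf in the sum was 9.88 ± 1.31% in Sham and 22.0 ± 3.19% in pMx. Vegfa went from 25.4 ± 1.42% to 33.9 ± 1.29%. Vegfb took 45.0 ± 2.45% in Sham and 31.5 ± 3.41% in pMx, and Vegfc 19.7 ± 1.37% and 12.6 ± 0.824% (SD, n = 3 each). For each of these 4 ligands the shares of pMx libraries did not overlap those of Sham libraries. These shares are descriptions and were not tested.

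**Figure D2:**
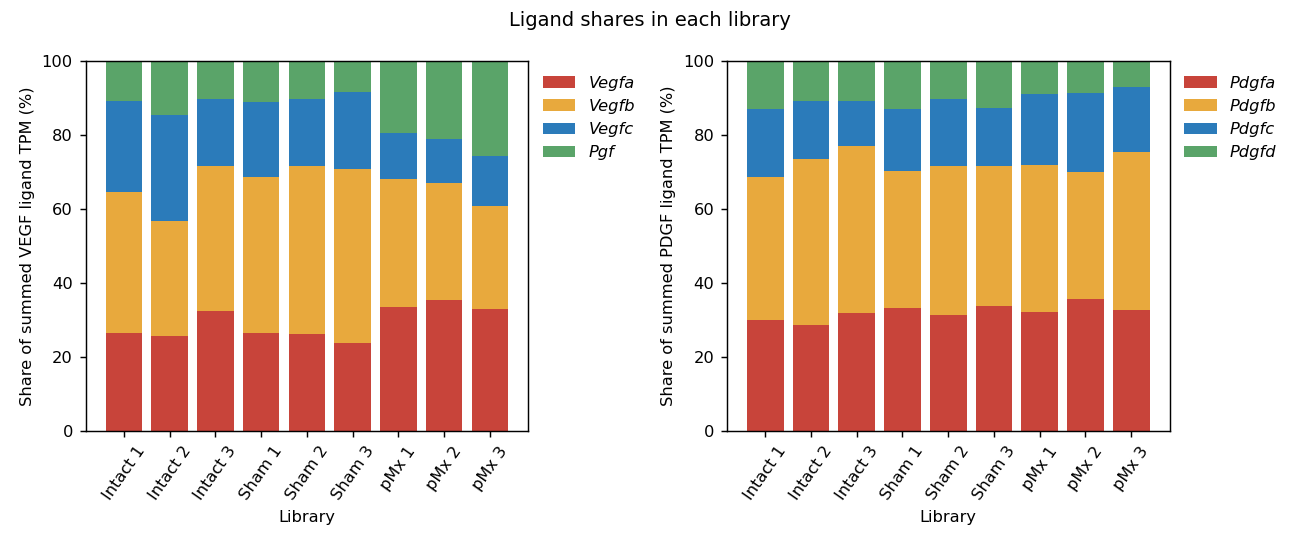
Share of each ligand (percent of the summed TPM of its family, vertical axis) in each library (horizontal axis) for VEGF family ligands on the left and PDGF ligands on the right. The VEGF sum covers Vegfa, Vegfb, Vegfc and Pgf and leaves out Vegfd. In the pMx libraries Pgf takes 19.5 to 25.6% of the VEGF ligand sum against 8.45 to 11.03% in the Sham libraries, and Pdgfd takes 7.03 to 8.82% of the PDGF ligand sum against 10.2 to 13.0%.

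None of the VEGF receptor genes passed the test between pMx and Sham. Of the 5 receptors and co-receptors (Flt1, Kdr, Flt4 and the neuropilins Nrp1 and Nrp2), 0 were called by limma at an adjusted p below 0.05 and 1, Kdr, at an unadjusted p below 0.05, which 45.6% of all genes passed. Kdr came nearest, at 22.0, 23.2 and 18.4 TPM in Sham and 25.5, 28.1 and 32.6 TPM in pMx libraries. The groups did not overlap, with a log2 fold change of 0.42 (SE 0.16, adjusted p = 0.0658 from limma). Kdr passed with median-of-ratios scaling (adjusted p = 0.0315), with quantile normalization (0.039) and without Intact replicate 3 (0.0179). It also passed in the fit of only the 6 Sham and pMx libraries (0.0239). Log2 fold changes were 0.09 for Flt1, -0.07 for Flt4, -0.03 for Nrp1 and 0.16 for Nrp2. Flt1 fell between Intact (52.5 ± 5.74 TPM) and Sham (34.3 ± 2.16 TPM, SD, n = 3 each), by -0.60 on the log2 scale (adjusted p = 0.0169 from limma). That call was lost without Intact replicate 2 (adjusted p = 0.0517), Sham replicate 1 (0.0543) or Sham replicate 2 (0.0515). Flt1 was also lower in pMx (36.9 ± 5.56 TPM, SD, n = 3) than in Intact, by -0.50 on the log2 scale (adjusted p = 0.00684 from limma). This second call held in all 9 fits that left out a library. Kdr was lower in Sham than in Intact by the same measure (log2 fold change -0.58, adjusted p = 0.047), a call lost in 8 of the 9 fits that left out a library, all but the one without Intact replicate 3 (adjusted p = 0.0566 to 0.127 in the 8).

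Endothelial markers moved with the groups as well. The 10 endothelial markers summed to 1422 to 1841 TPM in Intact, 1190 to 1265 TPM in Sham and 929 to 1166 TPM in pMx libraries. Of the 10, 5 fell and 0 rose between Sham and pMx, against 18.9% and 17.7% of all genes. Per TPM of Pecam1, a marker of all endothelium, Kdr was at 0.135 ± 0.00607 in Intact, 0.115 ± 0.00833 in Sham and 0.175 ± 0.0113 in pMx (SD, n = 3 each). Every pMx library was above every Sham and Intact library in this ratio, which was chosen after the values were seen. The ratio of Flt1 to Pecam1 was 0.222 ± 0.0175 in Intact, 0.186 ± 0.00732 in Sham and 0.224 ± 0.00577 in pMx (SD, n = 3 each). Intact and pMx libraries overlapped in it. Pecam1 itself had means of 238, 184 and 164 TPM in Intact, Sham and pMx. In the same order Cdh5 had means of 154, 113 and 142 TPM and Tie1 of 123, 124 and 132.5 TPM. Neither of these was called between Sham and pMx. Both ratios therefore depend on the marker chosen, and ratios to the other markers were not computed. In these bulk samples fewer cells of a type and less RNA per cell cannot be told apart. The part of the endothelial level in the ligand and receptor results was not tested.

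Partners of VEGF-C moved strongly, in opposite directions. Vegfd, which encodes the other lymphangiogenic ligand, was at 11.2, 11.5 and 14.9 TPM in Sham and 3.61, 4.35 and 3.07 TPM in pMx libraries, with a log2 fold change of -1.53 (SE 0.21, adjusted p = 0.000732 from limma). Ccbe1 encodes a secreted cofactor and Adamts3 the protease that together turn VEGF-C into its active form. Ccbe1 was at 1.36, 1.35 and 1.46 TPM in Intact, 4.91, 3.93 and 2.49 TPM in Sham and 33.0, 40.0 and 32.3 TPM in pMx libraries. Its log2 fold change was 2.94 between pMx and Sham (SE 0.18, adjusted p = 2.64e-05 from limma) and 0.97 between Sham and Intact (adjusted p = 0.0149). The Sham call was lost without Sham replicate 2 (0.93, adjusted p = 0.0611). Adamts3 was at 0.363 ± 0.0802 TPM in Sham and 1.02 ± 0.252 TPM in pMx (SD, n = 3 each), and it rose by 0.56 on the log2 scale (adjusted p = 0.00263 from limma).

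Most markers of lymphatic endothelium fell together with Vegfc and Vegfd. The 5 markers summed to 204 to 255 TPM in Intact, 272 to 345 TPM in Sham and 25.0 to 44.5 TPM in pMx libraries. Most of the sum in Sham was Ccl21, with a mean of 278 TPM. Of the 5, 4 fell in pMx against Sham (Prox1, Lyve1, Mmrn1 and Ccl21). The other 1, Reln, which encodes a secreted glycoprotein, rose. Over all genes, 18.9% fell and 17.7% rose. Prox1, the defining transcription factor, was at 0.600, 0.980 and 0.850 TPM in Sham and at 0.0600, 0.140 and 0 TPM in pMx libraries. Flt4, the VEGF-C receptor gene, was at 5.90 ± 0.424 TPM in Sham and 5.55 ± 0.216 TPM in pMx (SD, n = 3 each). The part of the lymphatic markers in the ligand changes was not tested.

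**Figure D3:**
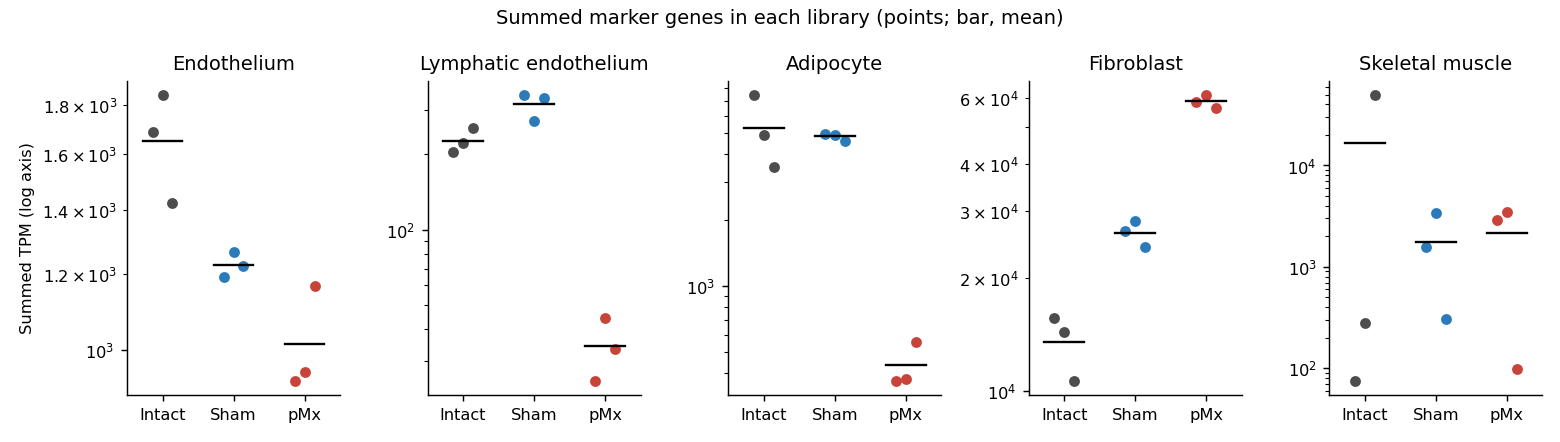
Summed TPM of marker genes (vertical axes, log scale) in the 3 libraries of each group (horizontal axis), with the mean as a bar. Lymphatic markers of pMx libraries lie at 25.0 to 44.5 TPM against 272 to 345 TPM in Sham libraries, and skeletal muscle markers reach 49250 TPM in Intact replicate 3.

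Among the PDGF ligands, Pdgfd was the one that passed the test. Pdgfd (gene identifier 66018), a ligand of PDGFR-beta, was at 15.4, 12.8 and 15.0 TPM in Sham libraries and 11.1, 10.7 and 9.71 TPM in pMx libraries. Intact libraries were at 19.1, 17.3 and 12.8 TPM, so every Intact and Sham library was above every pMx library. The log2 fold change was -0.42 against Sham (SE 0.14, adjusted p = 0.0471 from limma) and -0.58 against Intact (adjusted p = 0.00851 from limma). The call against Intact held in all 9 fits that left out a library. The call against Sham was lost in 6 of them, without Intact replicate 2 (adjusted p = 0.0586), Sham replicate 1 (0.134), Sham replicate 3 (0.131), pMx replicate 1 (0.0801), pMx replicate 2 (0.0986) and pMx replicate 3 (0.133). It was also lost with no filter on low values (adjusted p = 0.0515). Its share of the summed PDGF ligand TPM was 11.9 ± 1.49% in Sham and 8.12 ± 0.955% in pMx (SD, n = 3 each).

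The other PDGF ligands were not called in any of the 3 comparisons. Pdgfb (gene identifier 24628), the most abundant ligand here and a product of endothelium and platelets, was at 57.6, 72.8 and 54.2 TPM in Intact, 43.7, 50.5 and 45.1 TPM in Sham and 50.1, 43.1 and 59.1 TPM in pMx libraries. Sham libraries were all below Intact libraries, by -0.39 on the log2 scale (SE 0.14, adjusted p = 0.101 from limma), and they overlapped the pMx libraries. The 5 markers of platelets and megakaryocytes summed to 81.7 to 109 TPM in Intact, 155 to 228 TPM in Sham and 138 to 139 TPM in pMx libraries. Almost all of that sum was Pf4, which rose between Intact (92.9 TPM) and Sham (176 TPM), whereas Gp9 fell there and was at 0 in pMx, and Ppbp was at 0 in Sham and pMx libraries. The part of platelets in the level of Pdgfb was not tested. Pdgfa (gene identifier 25266), a PDGFR-alpha ligand, was at 39.4, 39.5 and 40.3 TPM in Sham and 40.5, 44.9 and 45.3 TPM in pMx libraries, a log2 difference of 0.13 (SE 0.08, adjusted p = 0.243). Intact libraries of Pdgfa were at 44.5, 46.1 and 38.3 TPM.

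Pdgfc (gene identifier 79429), a PDGFR-alpha ligand that needs cleavage, was at 19.9, 22.7 and 18.8 TPM in Sham and 24.3, 26.9 and 24.1 TPM in pMx libraries. The log2 difference was 0.29 (SE 0.20, adjusted p = 0.310 from limma), without overlap. Its Intact libraries were at 27.4, 25.5 and 14.8 TPM, and the low value was that of the muscle-rich replicate 3. Without that library, whose spread enters the shared estimate, the difference between pMx and Sham was called (adjusted p = 0.0229 from limma), and so was that between Sham and Intact (-0.36, adjusted p = 0.0333). The fit of only the 6 Sham and pMx libraries also called the difference between pMx and Sham (adjusted p = 0.0315). The summed PDGF ligand TPM was 144 ± 21.3 in Intact, 121 ± 3.91 in Sham and 130 ± 7.13 in pMx (SD, n = 3 each).

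The PDGF receptor genes differed from each other. Pdgfra (gene identifier 25267) was at 76.0, 77.6 and 57.2 TPM in Intact, 92.8, 82.3 and 78.6 TPM in Sham and 75.3, 84.9 and 79.4 TPM in pMx libraries. Sham and pMx libraries overlapped, with a log2 difference of -0.08 (SE 0.12, adjusted p = 0.650 from limma), and Pdgfra was called in none of the 3 comparisons. Pdgfrb was at 82.1, 94.2 and 54.2 TPM in Intact, 112, 121 and 91.0 TPM in Sham and 192, 204 and 187 TPM in pMx libraries. All pMx libraries were above all others, and the log2 fold change was 0.85 against Sham (SE 0.19, adjusted p = 0.00825 from limma) and 1.36 against Intact (adjusted p = 0.000415). Both calls held in all 9 fits that left out a library. The TPM ratio of Pdgfrb to Pdgfra was 1.2, 1.47 and 1.16 in Sham libraries and 2.55, 2.40 and 2.35 in pMx libraries, against 1.08, 1.21 and 0.948 in Intact libraries. This ratio was chosen after the values were seen and was not tested. Pdgfrl, which encodes a receptor-like secreted protein, had a log2 difference of 0.10 between pMx and Sham (adjusted p = 0.662).

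PDGFR-beta is a marker of pericytes and is also made by fibroblasts. The 11 markers of pericytes and smooth muscle summed to 3984 to 4533 TPM in Sham and 2458 to 2708 TPM in pMx libraries. Acta2 (mean 1455 TPM) and Tagln (1246 TPM) made up most of this sum in Sham. Of the 11, 5 fell (Acta2, Myh11, Tagln, Cnn1 and Abcc9) and 0 rose, against 18.9% and 17.7% of all genes. The other 6 did not pass. Of these, Rgs5, Mcam, Cspg4 and Des had a higher mean in pMx than in Sham, and Notch3 and Kcnj8 a lower one. The list thus gives no single direction for pericytes. The 9 fibroblast markers summed to 24130 to 28180 TPM in Sham and 56450 to 60840 TPM in pMx libraries, with 5 that rose and 4 that fell. The part of either cell type in the rise of Pdgfrb was not tested.

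Hgf (gene identifier 24446) had the largest decrease of the 10 genes. It was at 4.75, 5.93 and 4.35 TPM in Sham libraries and 2.25, 2.27 and 2.15 TPM in pMx libraries. Intact libraries were at 6.45, 7.80 and 5.01 TPM. The pMx libraries were all below the other 6, and they were close to each other. The log2 fold change was -0.89 against Sham (SE 0.15, adjusted p = 0.00239 from limma) and -1.19 against Intact (adjusted p = 0.000290), where Hgf was the one DEG among the 10 genes. With a pseudocount of 0.1 the change against Sham was -1.13, past the DEG threshold. The mean in pMx was 44.4% of that in Sham.

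The receptor gene of HGF fell with it. Met was at 9.99, 8.29 and 9.41 TPM in Sham libraries and 5.17, 5.04 and 4.33 TPM in pMx libraries. The log2 fold change was -0.81 against Sham (SE 0.11, adjusted p = 0.00068 from limma) and -1.14 against Intact (adjusted p = 5.09e-05), and the groups did not overlap. The TPM ratio of Met to Hgf was 1.89 ± 0.426 in Sham and 2.18 ± 0.147 in pMx (SD, n = 3 each), with overlapping libraries.

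Of the 6 genes for proteases that activate HGF, PDGF-C or PDGF-D, 1 rose and 0 fell between Sham and pMx. Over all genes, 17.7% rose and 18.9% fell. The 1 that rose was Plat, which encodes tissue plasminogen activator, the protease that cleaves PDGF-C. Plat was at 92.6 ± 10.8 TPM in Sham and 169.9 ± 9.64 TPM in pMx (SD, n = 3 each). Its log2 fold change was 0.87 (SE 0.13, adjusted p = 0.00107 from limma). Plau, which encodes urokinase, had a log2 difference of 0.15 (adjusted p = 0.379), and Hgfac, which encodes HGF activator, was listed at 0 in every pMx library and at a mean of 0.110 TPM in Sham. St14, which encodes matriptase, rose between Intact and Sham (log2 fold change 0.77, adjusted p = 0.00918 from limma) and differed by -0.01 between pMx and Sham. Both inhibitors of these HGF-activating proteases fell in pMx. Spint2 went from 53.0, 47.9 and 52.8 TPM in Sham to 18.8, 22.5 and 26.3 TPM in pMx libraries (log2 fold change -1.16, SE 0.11, adjusted p = 0.000137 from limma), and Spint1 from 1.88, 1.79 and 1.99 TPM to 0.81, 0.55 and 0.85 TPM (-0.74, adjusted p = 0.00265).

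**Figure D4:**
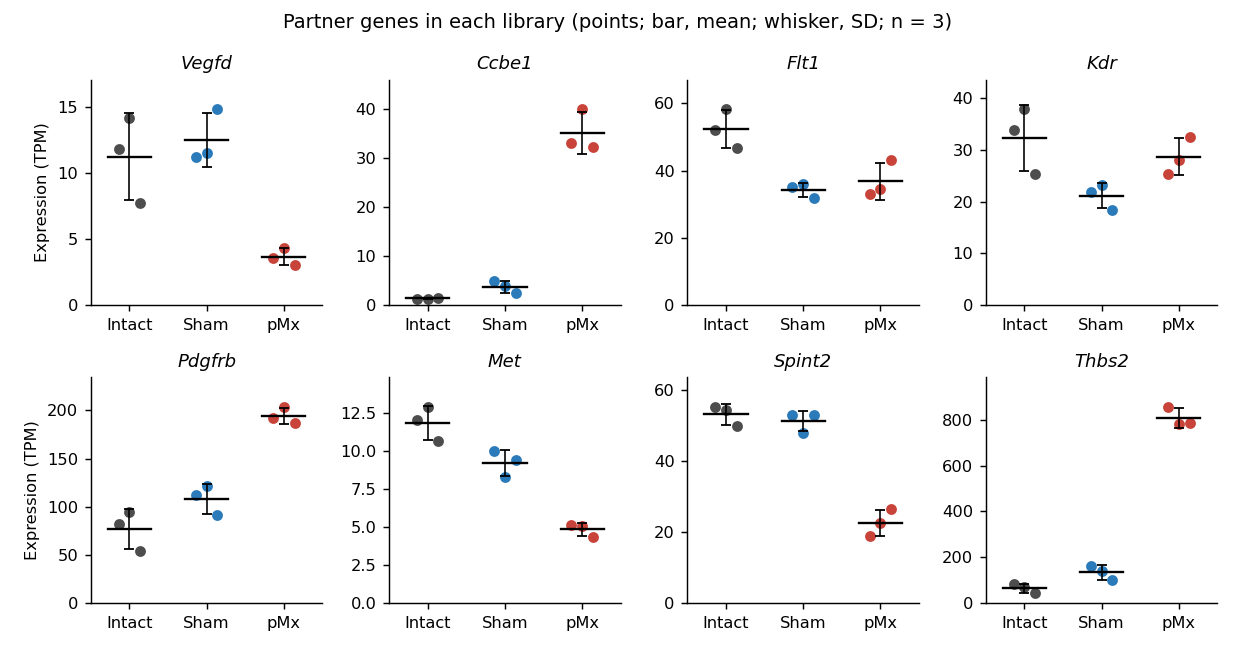
Expression in TPM (vertical axes, each from 0) of 8 partner genes in the 3 libraries of each group (horizontal axis), with the mean as a bar and the SD as a whisker. Ccbe1, Kdr, Pdgfrb and Thbs2 of pMx libraries lie above every Sham library, and Vegfd, Met and Spint2 lie below. Of these, Kdr did not pass the test. The share of all genes without such overlap was not computed.

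Marker genes of adipocytes, lining cells, Schwann cells and mast cells also differed between Sham and pMx. The 9 adipocyte markers summed to 4600 to 4966 TPM in Sham and 370 to 558 TPM in pMx libraries, and all 9 fell. The 5 synovial lining markers summed to 2004 to 2693 TPM in Sham and 1186 to 1895 TPM in pMx libraries. Of these 5, 3 fell and 0 rose, against 18.9% and 17.7% of all genes. All 6 Schwann cell markers fell. The 6 mast cell markers summed to 60.0 to 102 TPM in Sham and 6.7 to 9.76 TPM in pMx libraries, and 5 fell and 0 rose. Other lists were mixed. Of the 9 macrophage markers 1 rose and 3 fell, and of the 7 fibrocartilage markers 3 rose and 1 fell. The fibrocartilage markers summed to 752 to 834 TPM in Sham and 1620 to 1849 TPM in pMx libraries. The part of any of these cells in the lower Vegfb, Vegfc, Pdgfd and Hgf was not tested.

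Sham and Intact libraries were compared for the effect of opening the joint. Of the 10 genes, 0 passed at an adjusted p below 0.05 in limma. At that threshold 6.73% of all genes rose, 5.97% fell and, with the fold-change threshold, 1.96% were DEGs. At an unadjusted p below 0.05 there were 3 of the 10 (Vegfb, Pdgfb and Pdgfra), against 28.7% of all genes. The largest differences were those of Vegfb (0.39) and Pdgfb (-0.39), given above, Hgf (-0.30, adjusted p = 0.250) and Pdgfra (0.27, adjusted p = 0.174). Without Intact replicate 3, 2 of the 10 passed, Vegfb (0.50, adjusted p = 0.0229) and Pdgfc (-0.36, adjusted p = 0.0333).

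Between pMx and Intact, 1 of the 10 rose (Pgf) and 3 fell (Vegfc, Pdgfd and Hgf). Over all genes, 23.4% rose, 27.1% fell and 14.3% were DEGs. Leaving out Intact replicate 3, like the other settings given for it above, added Vegfa to the genes that rose. Hgf was the one DEG, and 2 of the 10 were DEGs without Intact replicate 2 or without pMx replicate 1, with Pgf as the second. Vegfb, which fell against Sham, had no call against Intact (log2 difference -0.10, SE 0.12).

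**Figure D5:**
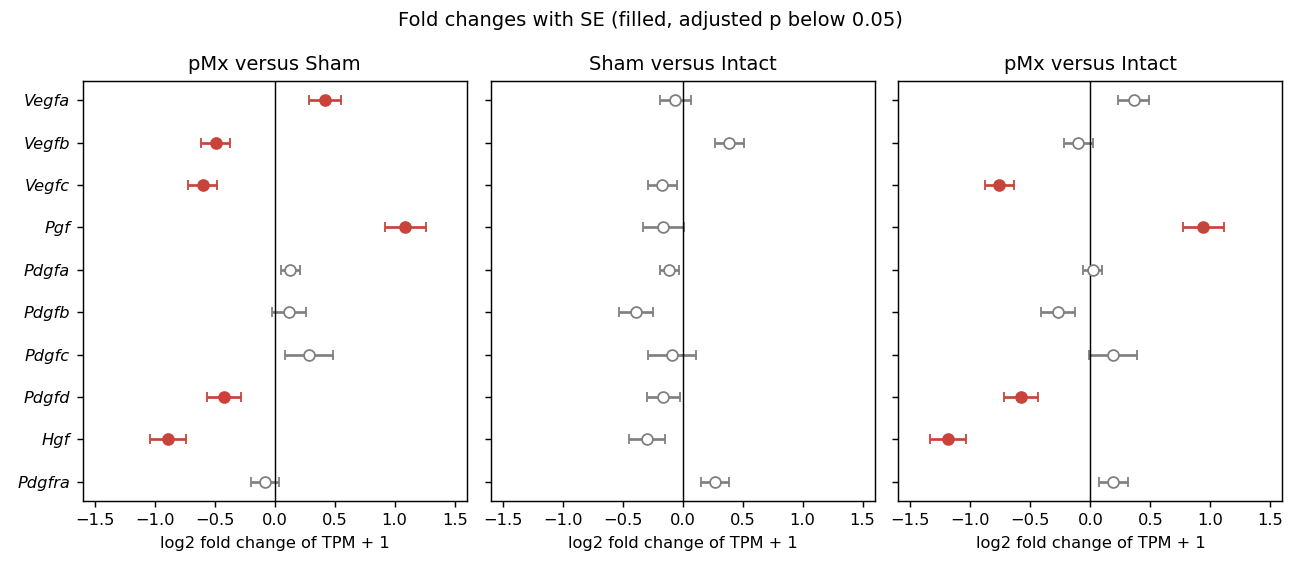
Log2 fold change of TPM + 1 (horizontal axes) with its SE for the 10 genes in the 3 comparisons, with filled red points for an adjusted p below 0.05. Points for pMx versus Sham run from -0.89 for Hgf to 1.09 for Pgf, and none of the Sham versus Intact points is filled.

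Vegfa is a target of the hypoxia-inducible factors (HIF), and other genes of that system were counted. Hif1a was at 92.2, 87.6 and 79.5 TPM in Sham and 157, 165 and 167 TPM in pMx libraries, and it rose by 0.91 on the log2 scale (SE 0.09, adjusted p = 0.000175 from limma). Epas1, which encodes HIF-2 alpha and is high in endothelium, was at 149.7, 149 and 143 TPM in Sham and 93.8, 106 and 111 TPM in pMx libraries. Its log2 fold change was -0.51 (SE 0.13, adjusted p = 0.0135), a call lost without pMx replicate 1 (-0.44, adjusted p = 0.0527). Among the 7 genes of the HIF pathway list, these were the only 2 called between pMx and Sham. Of 10 other HIF target genes, 4 rose and 2 fell between Sham and pMx, against 17.7% and 18.9% of all genes. Those that rose were Ca9 (3.32), Ankrd37 (1.40), P4ha1 (1.19) and the glucose transporter gene Slc2a1 (0.74), and those that fell were Adm (-0.72), which encodes the vasodilator adrenomedullin, and Pfkfb3 (-0.53). The values in brackets are log2 fold changes.

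Genes for matrix proteins that restrain angiogenesis rose in the same tissue. All 3 on the list, Thbs1, Thbs2 and Adamts1, were higher in pMx than in Sham. Thbs2, which encodes thrombospondin 2, was at 163, 142 and 99.1 TPM in Sham and 858, 784 and 786 TPM in pMx libraries (log2 fold change 2.61, SE 0.24, adjusted p = 0.000119 from limma). Thbs1 was at 62.7 ± 13.8 TPM in Sham and 122 ± 12.7 TPM in pMx (SD, n = 3 each), and it rose by 0.96 (adjusted p = 0.00397 from limma). The call of Adamts1 (0.57, adjusted p = 0.0318) was lost without Sham replicate 1 (adjusted p = 0.105), Sham replicate 2 (0.065), pMx replicate 1 (0.0886), pMx replicate 2 (0.0689) or pMx replicate 3 (0.076). Over all 39 partner genes on the pathway lists, 12 rose and 7 fell between Sham and pMx, and 20 did not pass. Over all genes tested, 17.7% rose and 18.9% fell.

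The genes most like each ligand over the 9 libraries were found by Pearson correlation of log2(TPM + 1) among 10711 genes with a mean of at least 5 TPM. These correlations are descriptions over libraries that share groups and scaling. The closest were Nop58, Unc5b and Icmt for Pgf (r = 0.973, 0.973 and 0.972) and Bzw2, Cib2 and Ppat for Vegfa (0.984, 0.965 and 0.961). For Hgf they were Gstt1, Emp2 and Txnrd3 (0.994, 0.989 and 0.989), for Vegfc Atxn3, Mrrf and Zfp36 (0.992, 0.991 and 0.987) and for Pdgfd Nmi, Trim34 and Slfn2 (0.995, 0.992 and 0.987). The closest gene was Mapkapk3 for Vegfb (0.915), Dhx38 for Pdgfa (0.961), Arap3 for Pdgfb (0.962), Srrm1 for Pdgfc (0.962) and Tnfaip2 for Pdgfra (0.965).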

How the data were processed

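Messenger RNA from 9 knee tissue samples was captured with oligo-dT, made into strand-marked libraries and sequenced at BGI. The authors deposited 1 table of TPM values, made in the Dr. Tom system and rounded to 2 decimals. The submitters' processing notes name HISAT2 2.0.4 and mRatBN7.2. The counting tool, annotation and any filter are not given in the sources used here. TPM are relative to the library total, which couples the genes to each other. Samples were grouped by their labels.

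From the deposited TPM, log2(TPM + 1) of the 16512 genes with a value above 0 in 3 or more libraries was fitted with limma 3.58.1 (R 4.3.3), using lmFit, contrasts.fit and eBayes with a trend and 1 mean per group over all 9 libraries and Benjamini-Hochberg adjustment per comparison. The calculation was tested on simulated data. The genes, partner lists and marker lists were chosen with earlier results of these data known, so counts over them are descriptions. The genes named in the text are the 10 genes, their receptors, other genes of the pathway lists that passed the test, and the 3 closest genes by correlation. The markers named and Plau, Hgfac and the ratios fall outside that rule and were chosen after their values were seen. Promoters were matched by gene identifier, all 10 of 10 genes, to RefSeq sequences of GRCr8, a build other than that of the processing notes. Pseudocounts of 0.1 and 0.01, other filters and scalings, a fit of 6 libraries, no trend, a replicate block and leaving out each library were tried.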

Additional observations from a re-analysis of the deposited data

How the results depend on the processing

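Against Sham, 6 of the 10 genes passed in pMx. The count ranged from 3 to 7 when each library was left out in turn, with the low value without pMx replicate 3. The number of DEGs among them was 1, with 2 under pseudocounts of 0.1 and 0.01, and 0 to 1 over the fits without a library. In Sham versus Intact, 0 passed in limma in all fits except the one without Intact replicate 3, where 2 did (range 0 to 2). In pMx versus Intact, 4 passed and 1 was a DEG, with ranges of 4 to 5 and 1 to 2 without a library. Among the 10 genes and the receptors, direction changed only in differences that had not been called, on the log2 scale as follows. In Sham versus Intact, Vegfa ranged from -0.16 to 0.09 and Pdgfc from -0.36 to 0.07 when each library was left out. In pMx versus Intact, Vegfb ranged from -0.24 to 0.01, Pdgfa from -0.06 to 0.07 and Pdgfc from -0.07 to 0.35. In pMx versus Sham, Flt1 ranged from -0.02 to 0.17 and Nrp1 from -0.1 to 0.01. The causes were not tested. Groups share replicate numbers. Deviations of same-numbered libraries correlated at 0.03 to 0.48 between pMx and Sham, against -0.47 to 0.31 for different numbers. Between pMx and Intact they correlated at -0.66 to -0.38, against -0.47 to 0.59 for different numbers. Deviations from the mean of 3 libraries are tied to each other, so these values cannot settle whether libraries are paired. The sources used here give no pairing, and the numbers were not taken to pair libraries. With the replicate number as a block, 5, 0 and 4 of the 10 genes passed in pMx versus Sham, Sham versus Intact and pMx versus Intact, and Vegfa was lost against Sham (adjusted p = 0.0669 in limma). Depth is unknown, so no counting error can be given.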

Other observations

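Some partners of these growth factors already differed between Sham and Intact, where none of the 10 genes was called. Of the 39 partner genes, 5 rose (Ccbe1, Pdgfrl, St14, Thbs2 and Hif1a) and 3 fell (Flt1, Kdr and Epas1), with 6.73% of all genes rising and 5.97% falling. St14 was at 2.90, 2.45 and 1.89 TPM in Intact and 4.55, 5.29 and 4.51 TPM in Sham libraries, and its call held in all 9 fits that left out a library. The calls of the other 7 were lost in 1 to 8 of those fits, 1 for Ccbe1 and 8 for Kdr. Hif1a was at 66.9 ± 8.06 TPM in Intact and 86.4 ± 6.42 TPM in Sham, and Epas1 at 221 ± 40.6 and 148 ± 3.63 TPM (SD, n = 3 each). The TPM ratio of Hif1a to Epas1 was 0.305 ± 0.0241 in Intact, 0.586 ± 0.0306 in Sham and 1.58 ± 0.0889 in pMx (SD, n = 3 each), without overlap between groups. This ratio was chosen after the values were seen and was not tested. Of the 10 endothelial markers, 4 fell, 0 rose and 6 did not pass between Intact and Sham, with sums of 1422 to 1841 and 1190 to 1265 TPM, and their part in the values of Epas1, Flt1 and Kdr was not tested.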
